A study of Saccharomyces cerevisiae BY4741 with 6 samples.

Results

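The genes described here encode the proton pump of the yeast plasma membrane and the proteins that move potassium across it. They were chosen by name, 9 genes in all, *PMA1*, *PMA2*, *PMP1*, *PMP2*, *TRK1*, *TRK2*, *TOK1*, *NHA1* and *ENA1*, and 8 of them have a probe set under their own name among the 5449 genes measured. *ENA1* has none in the array annotation used here and was therefore not measured under its own name. *Saccharomyces cerevisiae* BY4741, a laboratory haploid strain, was grown at 30 °C in YPD, a rich medium, and 3 cultures were left untreated for 4 h while 3 others received neomycin sulfate at 10 mg/mL for the same 4 h. Neomycin is an aminoglycoside antibiotic that carries several positive charges and binds anionic lipids, and both groups share the strain, medium and temperature. RNA from each culture was read on its own Affymetrix Yeast Genome 2.0 array, 6 arrays in all, as a GCRMA signal given in log2 units (1 unit is a doubling of the signal).

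Pma1 is the ATPase that pumps protons out of the cell and builds the proton gradient and the electrical potential of the plasma membrane. That potential draws in potassium through the Trk carriers and also drives the entry of positively charged drugs, and yeast mutants with a weaker Pma1 are known for their resistance to hygromycin B, another aminoglycoside. Potassium leaves the cell through the Tok1 channel, through the antiporter Nha1, which exchanges sodium or potassium for protons, and through the Ena ATPases, which expel sodium, lithium and potassium. Neomycin was compared with no drug to ask whether the transcripts of this machinery change in cells exposed to a polycation.

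With neomycin the mean signals of these genes ranged from 0.868 times the untreated signal for *TRK2*, a potassium carrier, to 1.14 times for *PMP1*, a small partner of the pump, and that of *PMA1* was 1.04 times. Of the 8 measured genes, 0 passed an adjusted p under 0.05 (limma, Benjamini-Hochberg over 5449 genes), against 0.514% of all genes, and 0 had an unadjusted p under 0.05, against 13.4% of all genes. Groups are said not to overlap when every neomycin array lies on the same side of every untreated array, which held for 0 of the 8 genes and for 18.4% of all genes. The 8 log2 fold changes (mean of the neomycin arrays minus mean of the untreated arrays) ran from −0.21 for *TRK2* to 0.17 for *PMP1*, with a median of 0.070, beside −0.051 over all genes. They were above 0 for 6 of the genes and below 0 for 2, where 62.1% of all genes lay below 0. With so few members these shares are a description and not a test.

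*PMA1* (YGL008C) encodes the essential pump itself. Its log2 signal was 12.87, 13.10 and 13.06 on untreated replicates 1, 2 and 3 and 13.09, 13.03 and 13.11 on neomycin replicates 1, 2 and 3. Untreated replicate 1 was the lowest, and the other 5 arrays lay close together. The log2 fold change was 0.066 (SE 0.105, n = 3 and 3 arrays, limma adjusted p = 0.852), and its 95% interval corresponds to a signal of 0.885 to 1.24 times the untreated one. The neomycin arrays had the smallest SD of any of these genes in either group, 0.0427. Without untreated replicate 1 the log2 fold change was −0.0045.

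*PMA2* (YPL036W) is a paralog of *PMA1* that encodes a second, little used pump. Its log2 signal was 6.03, 5.67 and 6.16 without neomycin and 5.74, 6.13 and 6.003 with it. The groups had almost the same mean, 5.95 ± 0.251 (SD, n = 3) and 5.96 ± 0.199, and interleaved fully. The log2 fold change was 0.0047 (SE 0.159, adjusted p = 0.993), with an interval from 0.778 to 1.29 times the untreated signal. *PMA2* was among the dimmest 0.25 of the genes, and how well so dim a signal follows a change was not tested. Probes for one paralog can also bind RNA of the other, which was not tested here.

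*PMP1* and *PMP2* encode very small membrane proteins that associate with the pump and stimulate it. Their coding lengths in the RefSeq table of assembly R64 are 123 and 132 bases. *PMP1* (YCR024C-A) read 12.05, 12.39 and 12.18 without neomycin and 12.64, 12.02 and 12.47 with it. Neomycin replicates 1 and 3 lay above all untreated arrays and neomycin replicate 2 below all of them. This gave the widest neomycin spread of these genes, an SD of 0.319, and a log2 fold change of 0.17 (SE 0.17, adjusted p = 0.737). *PMP2* (YEL017C-A) read 12.50, 12.62 and 12.56 without neomycin and 12.87, 12.59 and 12.70 with it. Again neomycin replicates 1 and 3 were above every untreated array, while neomycin replicate 2 fell between untreated replicates 2 and 3. The log2 fold change was 0.16 (SE 0.11, adjusted p = 0.590). The 95% intervals reach 1.48 times the untreated signal for *PMP1*, the highest bound of the 8 genes, and 1.33 times for *PMP2*.

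**Figure D1:**
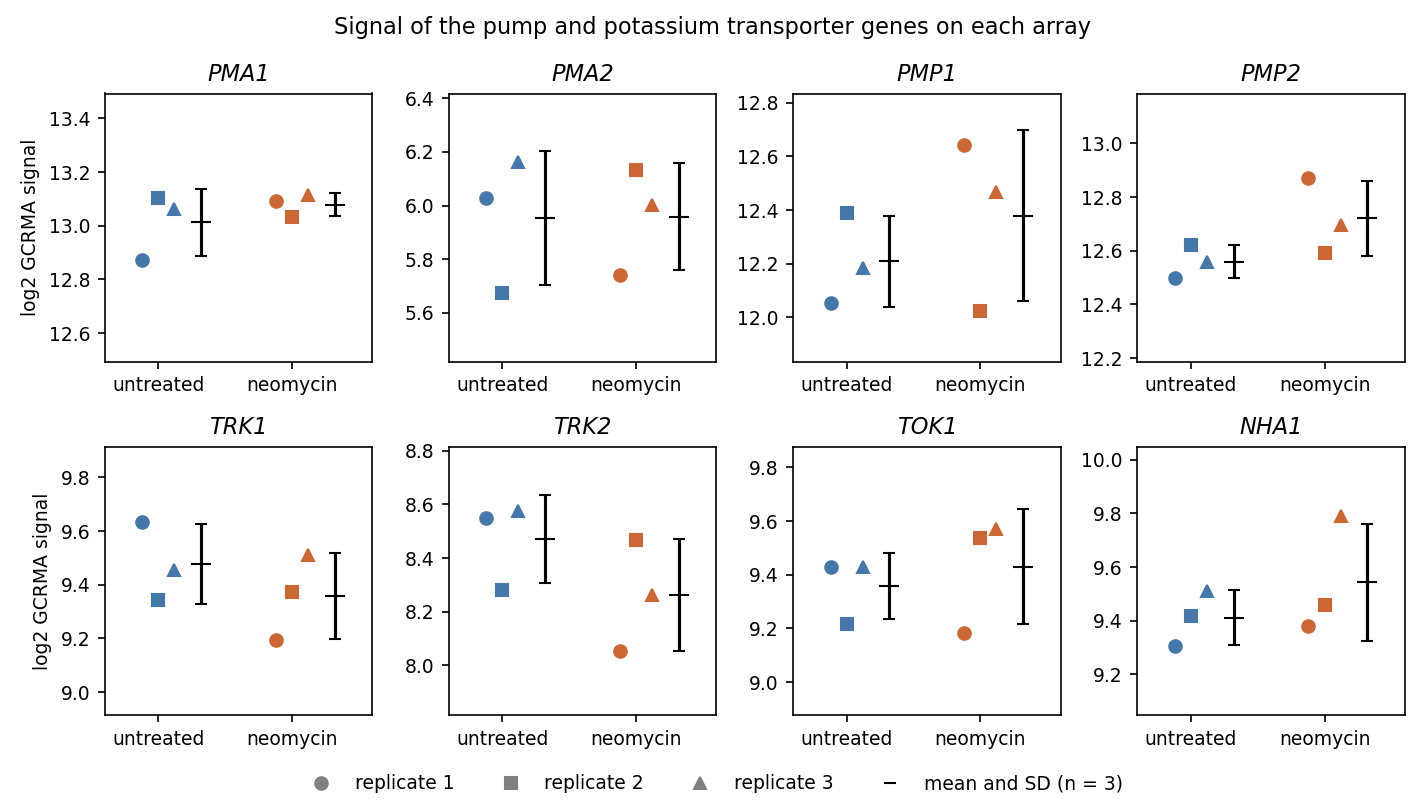
The log2 GCRMA signal of each measured gene (vertical axis, every panel spanning 1 log2 unit) on the 3 untreated and 3 neomycin arrays, with a symbol for each replicate and the mean and SD beside them. Neomycin and untreated arrays overlap in all 8 panels.

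Potassium uptake depends on *TRK1*, the main high-affinity carrier, and on its paralog *TRK2*. They were the only measured genes of the group with means below those of untreated cells. *TRK1* (YJL129C) had log2 signals of 9.64, 9.34 and 9.46 without and 9.19, 9.37 and 9.51 with neomycin, and *TRK2* (YKR050W) had 8.55, 8.28 and 8.58 without and 8.05, 8.47 and 8.26 with it. For both genes neomycin replicate 1 lay below all untreated arrays, and the other neomycin arrays stood within the untreated range or, for *TRK2* on replicate 3, just under it. The log2 fold changes were −0.12 (SE 0.13, adjusted p = 0.752) and −0.21 (SE 0.14, adjusted p = 0.586). The interval of *TRK2*, from 0.691 to 1.08 times the untreated signal, holds the lowest bound of the 8 genes.

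*TOK1* (YJL093C) encodes the outward potassium channel of the plasma membrane. It read 9.43, 9.21 and 9.43 on the untreated arrays and 9.18, 9.54 and 9.57 on the neomycin arrays. Neomycin replicates 2 and 3 were above each untreated array and neomycin replicate 1 below each of them. Its log2 fold change was 0.073 (SE 0.136, adjusted p = 0.873), and 0.0019 without untreated replicate 2. *NHA1* (YLR138W), the antiporter, read 9.31, 9.42 and 9.51 without and 9.38, 9.46 and 9.79 with neomycin. Here only neomycin replicate 3 lay outside the untreated range, and the log2 fold change was 0.13 (SE 0.13, adjusted p = 0.735), or 0.0077 without that array.

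The sodium pumps are encoded by near-identical neighbouring copies, and in the RefSeq table *ENA5*, *ENA2* and *ENA1* stand next to each other with a coding length of 3276 bases each. The annotation names only *ENA5* among them, for a pair of probe sets. One of these carries the ending _s_at, which in Affymetrix naming marks probes shared by several transcripts. Which of the copies it reads was not tested, since probe sequences were not used here, so its value is given as that of *ENA5* and its copies and not of *ENA1*. The shared set read 10.39, 9.94 and 10.44 without neomycin and 10.60, 10.82 and 10.34 with it. Neomycin replicates 1 and 2 were above the untreated arrays and neomycin replicate 3 was within them, with a log2 fold change of 0.33 (SE 0.17, adjusted p = 0.475 over all genes). The single set read 8.74, 8.66 and 8.60 without and 8.81, 8.51 and 8.76 with neomycin, a log2 fold change of 0.023 (SE 0.116, adjusted p = 0.962 over all probe sets).

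**Figure D2:**
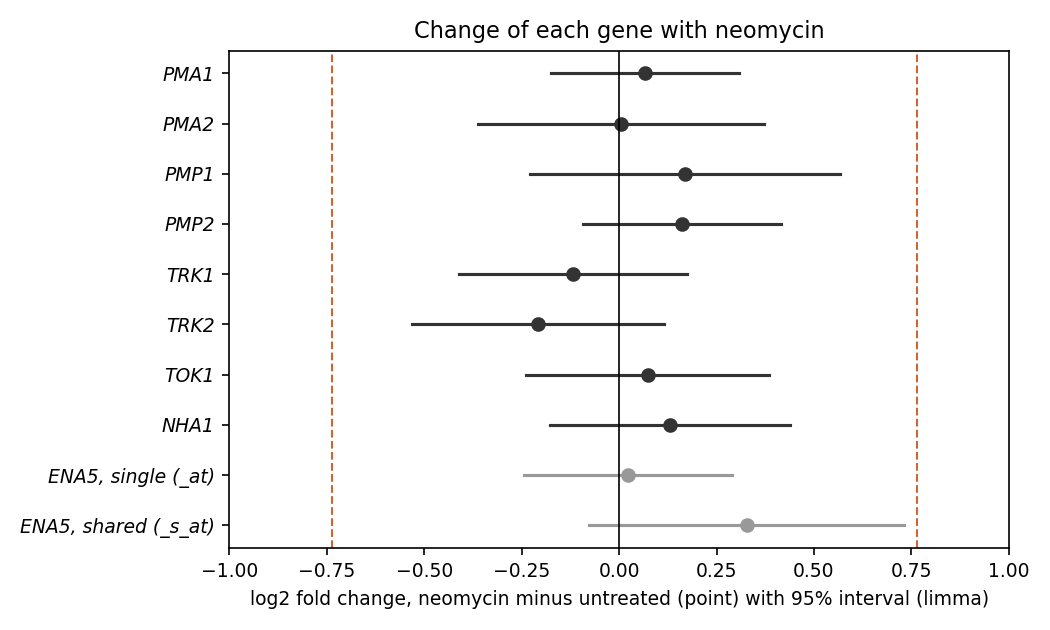
The log2 fold change of each gene with neomycin (horizontal axis, point) and its 95% interval from limma (line), with the probe sets of *ENA5* in grey. Dashed lines mark ratios of 1.7 and 0.6, which the study's methods apply to mean signals and not to mean log2 values. Every interval crosses 0, and none of the 8 measured genes has one that reaches a dashed line.

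The precision of these estimates can be read from the intervals, which cover 1 gene at a time. Over the 8 genes they extend from 0.691 to 1.48 times the untreated signal. These bounds lie inside the ratios of 1.7 and 0.6 that the study's methods set for an induced or repressed gene. The measures differ, as the intervals rest on means of log2 values and the study's ratios on means of the signal itself. The interval of each gene sets its own bound, and a change inside it is left undecided by these 3 arrays per group. By those ratio criteria, with the Bayesian test of the methods rebuilt, 0 of the 8 genes were induced or repressed, beside 1.82% of all genes. An exact permutation test of 3 arrays against 3, which cannot give a p under 0.1, gave 2-sided p-values from 0.2 for *PMP2* and *TRK2* to 1 for *PMA2*. A signal is relative to the other transcripts of its array, so that a change shared by all transcripts, such as less RNA per cell, cannot be seen.

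Paralogs and partners were also compared on the same array, where a shift of the whole array cancels. The log2 difference between *PMA1* and *PMA2* changed by 0.062 with neomycin, that between *PMP1* and *PMP2* by 0.0080 and that between *TRK1* and *TRK2* by 0.089. Over these 3 comparisons the exact permutation test gave p = 0.9, 0.8 and 0.4 (each 0.9 after Benjamini-Hochberg adjustment, n = 3 arrays per group). The SD of the difference between arrays was larger than the change in each case, from 0.109 for *PMP1* and *PMP2* in untreated cells to 0.322 for *PMA1* and *PMA2* in untreated cells.

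The variation among cultures had a shared shape. *PMA2*, *TRK1*, *TRK2* and *TOK1* were lowest on untreated replicate 2 among the untreated arrays and lowest on neomycin replicate 1 among the neomycin arrays, while *PMP1* and *PMP2* were highest on both. In all, 6 of the 8 genes had these arrays at the same end. The same was true of 38.6% of all genes, the highest share of the 9 pairs of an untreated with a neomycin array, where the others ran from 10.6% to 30.8%. *PMA1* and *NHA1* departed from it, both being highest on neomycin replicate 3 and lowest on untreated replicate 1. The neomycin arrays spanned a wider range than the untreated arrays for 6 of the 8 genes, as they did for 61.9% of all genes, and *PMA1* and *PMA2* were the exceptions. Leaving out neomycin replicate 1, without which the number of called genes over the whole array rose from 23 to 119 higher and from 5 to 23 lower, still called 0 of the 8 genes, and leaving it out together with untreated replicate 2 called 0 as well. Over all probe sets the signals of neomycin replicate 1 correlated more closely with untreated replicate 2 (0.993) than with neomycin replicates 2 (0.987) and 3 (0.989). What separates these arrays was not tested.

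**Figure D3:**
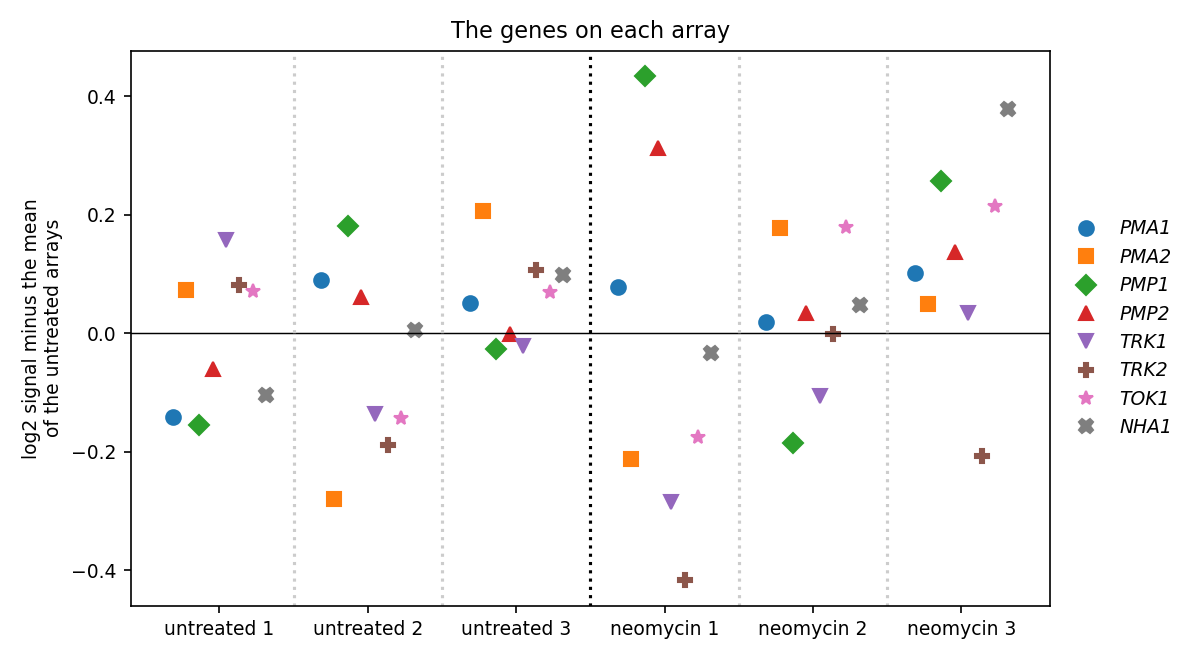
The log2 signal of each gene minus its mean on the untreated arrays (vertical axis) on each of the 6 arrays, with a symbol for each gene. *PMP1* and *PMP2* stand at the top on untreated replicate 2 (with *PMA1* between them) and on neomycin replicate 1, where *TRK1*, *TRK2*, *TOK1* and *PMA2* stand at the bottom.

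The genes whose profile over the 6 arrays was nearest to that of *PMA1* were *RPL32*, *SAS3* and *RPL35A*. Their root mean square difference from it was 0.0236, 0.0285 and 0.0285 log2 units, each gene being set to its untreated mean. *RPL32* and *RPL35A* encode proteins of the large ribosomal subunit and *SAS3* a histone acetyltransferase. Their own log2 fold changes were 0.091, 0.061 and 0.053. The differences from *PMA1* are smaller than the SD of *PMA1* itself on the untreated arrays, 0.124. Whether these genes are regulated together was not tested.

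Beyond these genes, 76 genes of 8 lists that touch on the pump, on potassium and on other cation transport were examined, of which 73 were measured. In the test over all genes 0 of them were called, higher or lower. Of the 73, 7 had neomycin arrays above all untreated arrays (5.58% of all genes did) and 3 below them (12.8% of all genes). Together these were 13.7% of the lists, beside 18.4% of all genes. Over all genes the number above rose from 304 to 477 with each array centred on its median, a count not made for the lists. At an unadjusted p under 0.05 there were 8 higher and 2 lower genes, 13.7% of the lists beside 13.4% of all genes. Without neomycin replicate 1, 6 of the 73 were higher at an adjusted p under 0.05 (8.22%, beside 2.18% of all genes), *HSP30*, *NRG1*, *KHA1*, *PCA1*, *TPO4* and *QDR3*. With any other single array left out, no gene of the lists was called, and at most 1 of all genes was higher. By the ratio criteria 3 of the 73 were induced, *HSP30*, *NRG1* and *TPO4* (4.11%, beside 1.45% of all genes). The lists were chosen with earlier results known, and these shares are a description. Of the kinases, phosphatases and other regulators of potassium transport (9 of 9 measured), 0 were free of overlap, against 18.4% of all genes. These regulators had a median of 0.032 for the log2 fold change. They include *SAT4* and *HAL5*, kinases that keep the Trk carriers at the membrane (−0.12 and 0.14), and *PPZ1*, a phosphatase that restrains them (0.067). The extremes of the list were *SIS2*, the inhibitor of the Ppz phosphatases (−0.23, SE 0.15), and *HAL1* (0.17, SE 0.16). The family of small hydrophobic membrane proteins around *PMP3* (4 of 4) ran from −0.059 for *SNA2* to 0.15 for *SNA3*. The transcription factors tied to *PMA1*, *RAP1*, *GCR1* and *GCR2*, had values of −0.11, −0.27 and −0.23, and the arrays of the groups overlapped for all of them.

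Among the proteins that modify the pump or carry it to the cell surface (10 of 12 measured, median 0.067), *HSP30*, a stress protein that restrains Pma1, had the largest value. It read 6.23, 6.23 and 6.52 without neomycin and 6.68, 7.28 and 8.14 with it, a log2 fold change of 1.04 (SE 0.32, adjusted p = 0.246, and from 0.0286 without neomycin replicate 1 to 0.588 without untreated replicate 1). Each neomycin array was above each untreated array. At the other end *AST1*, which helps to target Pma1 to the plasma membrane, had a value of −0.29 (SE 0.14, adjusted p = 0.408). *PTK2*, the kinase that activates Pma1 in response to glucose, had a value of 0.24 (SE 0.14, adjusted p = 0.512).

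For the regulators of *ENA1* transcription (16 of 16 measured) the median was 0.0032. *NRG1*, a repressor of *ENA1*, read 7.82, 7.63 and 7.54 without neomycin and 8.32, 8.95 and 9.04 with it. The groups were well apart, and the log2 fold change was 1.11 (SE 0.19, adjusted p = 0.0536). Its adjusted p depended on the setting, from 0.00242 without neomycin replicate 1 to 0.205 without untreated replicate 3, and it was 0.0359 after the arrays were quantile normalised again. *SNF1*, the kinase that relieves glucose repression, had the lowest value, −0.26 (SE 0.11, adjusted p = 0.373). *RIM101*, the regulator of the response to alkaline pH, stood above its untreated range on each neomycin array (0.35, SE 0.11, adjusted p = 0.253), and *CNA1*, a catalytic subunit of calcineurin, below it (−0.21, SE 0.12, adjusted p = 0.487). These 2 genes were named after their values were seen.

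The list of polyamine transporters, which handle natural polycations, had the highest median of the 8 lists, 0.28 over 11 genes. It held 2 genes above their untreated range on each neomycin array, as were 5.58% of all genes. The list went both ways. *TPO1*, *DUR3* and *SAM3* had log2 fold changes of 0.35, 0.39 and 0.39. *TPO2*, *TPO3*, *TPO5* and *HOL1* had −0.13, −0.20, −0.076 and −0.14. *TPO4*, a plasma membrane exporter of polyamines, read 9.88, 9.79 and 9.23 without and 10.34, 10.77 and 10.68 with neomycin. All its neomycin arrays were higher, with a log2 fold change of 0.97 (SE 0.19, adjusted p = 0.0831, and from 0.0317 without neomycin replicate 1 to 0.311 without neomycin replicate 3). *QDR3*, a multidrug exporter picked out by its value, had a log2 fold change of 0.66 (SE 0.16, adjusted p = 0.143). The adjusted p of *QDR3* ran from 0.0342 without neomycin replicate 1 to 0.381 without untreated replicate 1. *UGA4*, a vacuolar permease for putrescine and γ-aminobutyrate, had the lowest value, −0.27 (SE 0.16, adjusted p = 0.538), and *AGP2*, a regulator of polyamine uptake, had 0.28 (SE 0.13, adjusted p = 0.389).

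Other carriers of monovalent cations (9 of 10 measured) had a median of 0.076. *KHA1*, a potassium and proton antiporter of internal membranes, read 8.72, 8.65 and 8.56 without and 9.03, 9.23 and 9.31 with neomycin. It was higher on each neomycin array, and its log2 fold change was 0.55 (SE 0.11, adjusted p = 0.0924, and from 0.0338 without neomycin replicate 1 to 0.346 without untreated replicate 3), but it was singled out after its values were seen. *PHO89*, the sodium and phosphate symporter, had the highest value of the list, 1.41, with an SE of 1.26 (adjusted p = 0.698). *YLH47*, a protein of the mitochondrial inner membrane, had the lowest (−0.30, SE 0.10, adjusted p = 0.286). The other P-type ATPases (11 of 11 measured, median −0.040) are of the family to which Pma1 and the Ena pumps belong. They ran from −0.10 for *YPK9*, a pump of the vacuole, to 0.54 for *PCA1* (SE 0.14, adjusted p = 0.175). The neomycin arrays of *PCA1* were all above the untreated ones. Its adjusted p ran from 0.0283 without neomycin replicate 1 to 0.490 without untreated replicate 3.

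**Figure D4:**
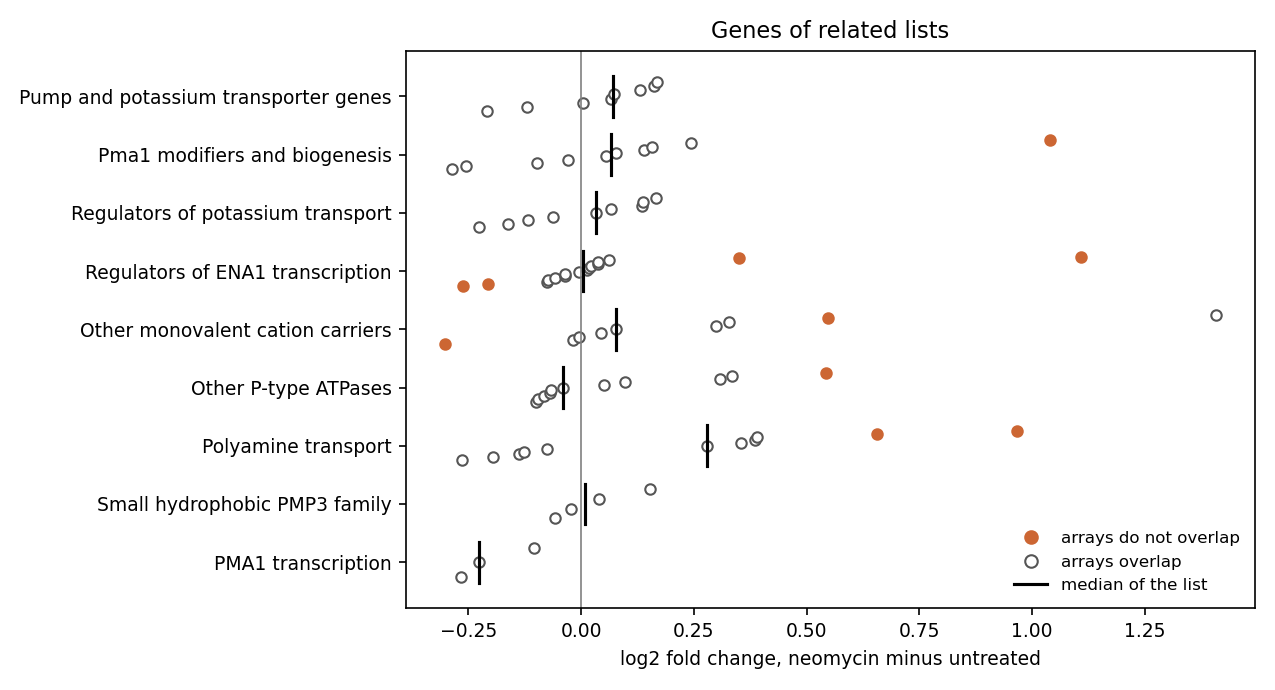
The log2 fold change with neomycin (horizontal axis) of each measured gene, for the 8 pump and potassium transporter genes (top) and the 8 related lists, with a bar at each median. Filled points are genes whose neomycin arrays do not overlap the untreated arrays. The top row has 0 of them and the lists 10, beside 18.4% of all genes.

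As a check of the strain, *LEU2*, *MET17* and *URA3*, which are deleted in BY4741, had mean log2 signals from 3.45 to 4.75 in the groups. Signals of different probe sets are not on a common scale, so that these values only describe the strain. The genes of a cells *STE2*, *MFA1*, *MFA2*, *BAR1* and *STE6* had untreated means from 10.98 to 12.61. Of the α-cell genes, *MF(ALPHA)1* had an untreated mean of 3.71, while *STE3*, *MF(ALPHA)2* and *SAG1* had 5.82, 6.20 and 8.29. The arrays had medians from 8.84 to 8.93 over all probe sets, and their number limits the precision.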

How the data were processed

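RNA of 6 cultures, 3 untreated and 3 treated with neomycin, was read on 1 array each. The authors converted the fluorescence signals with GCRMA (version not given in the sources used here) into background-adjusted, normalised log2 values per probe set, and the deposited log2 values were used as they are. Of 5716 probe sets, 5498 name 1 gene in the platform annotation, 0 several and 218 none. Symbols were updated through gene IDs (12 changed). The brightest probe set on average stood for each of 47 genes with more than 1, leaving 5449 genes. The groups were compared in R 4.3.3 by the moderated test of limma 3.58.1 (4.03 prior degrees of freedom). The test was 2-sided, with Benjamini-Hochberg adjustment over all genes and a threshold of an adjusted p under 0.05. A run on simulated data used independent noise for each array, so it could not show the effect of variation shared between arrays. Cyber-T, the test of the methods, was rebuilt on log2 values (window 101, confidence 10, settings not stated) for the ratio criteria. The titles call the cultures biological replicates.

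The text names the 9 genes, the extreme genes of each list, the 3 profiles nearest to *PMA1*, and further genes of the lists outside this rule, some marked as chosen by value and *PTK2*, *AGP2*, *SAT4*, *HAL5* and *PPZ1* for their known roles after their values were seen. Members and lists were chosen with earlier results of these data known. *EXP1*, *PSG1* and *ENA2* of the lists had no probe set under their names, and *LST1* was read as *SFB3*. Genome coordinates are not given, because the sources name no build for the array. Alternatives were a replicate block, other normalisations, filters, probe set rules and priors, a looser threshold, the ratio criteria and leaving out arrays.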

Additional observations from a re-analysis of the deposited data

How the results depend on the processing

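Under each alternative 0 of the 8 genes were called. Their median change stayed between 0.0050 (without neomycin replicate 3) and 0.11, and the lowest adjusted p of any of them was 0.314, for *PMP1* without neomycin replicate 2 (log2 fold change 0.35, unadjusted p = 0.0394). With arrays left out, the log2 fold change of *PMA1* ran from −0.0045 to 0.11 and that of *PMA2* from −0.14 to 0.11, and the other 6 genes kept their sign in all settings, though not their size. *PMP1* ran from 0.036 to 0.35, *PMP2* from 0.085 to 0.22, *TRK1* from −0.20 to −0.036, *TRK2* from −0.31 to −0.10, *TOK1* from 0.0019 to 0.20 and *NHA1* from 0.0077 to 0.22. The difference within *PMA1* and *PMA2* ran from −0.053 to 0.25, that within *PMP1* and *PMP2* from −0.049 to 0.12 and that within *TRK1* and *TRK2* from 0.014 to 0.19. Without neomycin replicate 1 and untreated replicate 2, chosen after seeing the data, *PMA2* had −0.026 and the whole array 71 higher and 12 lower genes.

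Over all genes the counts of 23 higher and 5 lower depended on the setting. Higher genes numbered 50 after quantile normalisation again, 42 with each array centred on its median and 40 without the dimmest 0.25 of genes, which leaves out *PMA2*. An intensity trend gave 48 and 14, an adjusted p under 0.1 gave 59 and 23, the ratio criteria 79 and 20, and the same with limma's p 76 and 20. Leaving out 1 array gave from 0 to 119 higher and from 0 to 23 lower genes. With the replicate number as a block, limma called 0 and 0. Same-numbered arrays did not deviate together for numbers 1 and 2 (correlations of −0.00030 and −0.38) but did for number 3 (0.44). The numbers were therefore not taken as pairs. Only number 3 correlated best with its own number, while untreated replicate 1 did so with neomycin replicate 2 (0.40) and untreated replicate 2 with neomycin replicate 1 (0.40). The labels give no such matching, and it was not fitted. The split of genes whose arrays do not overlap moved from 304 above and 696 below to 463 and 550 after quantile normalisation and 477 and 514 after centring, with 0 of the 8 genes in either. The causes were not tested. With 3 arrays per group and no scanner signals analysed here, small changes and saturation of bright probe sets could not be seen.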

Other observations

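*PHO89*, the sodium and phosphate symporter of the plasma membrane, spanned a wider range of signals within each group than the difference of the group means. Its log2 signal was 11.95, 10.47 and 7.06 on untreated replicates 1, 2 and 3 and 12.37, 12.19 and 9.13 on neomycin replicates 1, 2 and 3. In both groups the array of replicate 3 was the lowest. Neomycin minus untreated arrays of the same number gave 0.43, 1.72 and 2.07, but the numbers are not known to pair the cultures, and the groups overlapped.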
